A study of Mus musculus with 6 samples.

Results

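A set of 10 genes encodes the enzymes that make the main membrane phospholipids of the liver cell and exchange their acyl chains. They are Chka, Chkb, Pcyt1a, Pcyt2, Chpt1, Cept1, Pemt, Ptdss1, Ptdss2 and Lpcat3, and they were chosen by name. A gene was taken when an array feature carried its symbol and no other. All 10 were found, each with 1 such feature, among the 18820 genes measured. Features that name Chkb, Ptdss1 or Lpcat3 together with a second gene, 1 for each, were not used.

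Phosphatidylcholine and phosphatidylethanolamine are the most abundant phospholipids of animal cells and form the surface of lipid droplets and of very low density lipoproteins. Both are made by the Kennedy pathway, in which choline or ethanolamine is phosphorylated, activated with CTP and joined to diacylglycerol. The liver has a further route to phosphatidylcholine, the methylation of phosphatidylethanolamine by PEMT, and phosphatidylserine is made from either lipid by exchange of the head group. Acyl chains are exchanged afterwards by phospholipases and lysophospholipid acyltransferases.

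Expression was measured in primary hepatocytes of male wildtype C57BL/6J mice 8 to 10 weeks old, which were cultured in 60 mm dishes. The dishes of one group received Ad-GFP, an adenovirus for green fluorescent protein that served as the control, and those of the other received Ad-nuclear CREBH, an adenovirus for the nuclear form of the liver transcription factor CREBH. Both were given at a multiplicity of infection of 100 and RNA was taken 24 h later, from 3 dishes per group, with 1 Affymetrix Mouse Gene 1.1 ST array for each dish. The comparison asks which genes respond to CREBH in hepatocytes. Both groups carry a virus, and no group without one was analysed here.

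Creb3l3, the gene of CREBH, lay between 8.02 and 8.49 on the log2 scale under Ad-GFP and between 9.97 and 10.59 under Ad-nuclear CREBH. Of 9 hepatocyte markers 1 rose (Apoa1) and 3 fell (Cps1, Asgr1 and Tat), with a summed level (log2 of the sum of linear values) of 14.91 to 15.06 against 15.02 to 15.08 and with Alb at 13.28 and 13.27 and Trf at 13.17 and 12.97 (log2, group means). Of 6 macrophage markers 1 rose, Csf1r from 4.70 to 5.31, and 2 fell, Cd68 from 11.49 to 10.35 and Lyz2 from 6.28 to 5.71. Adgre1, Clec4f and Marco did not pass the test. The summed level of the 6, of which Cd68 was the brightest, was 11.35 to 11.79 against 10.15 to 11.28. None of 6 endothelial markers passed the test (summed level 7.91 to 8.35 against 7.93 to 8.23). Of 6 stellate cell markers Reln fell, from 6.07 to 4.17 (summed level 7.05 to 7.41 against 6.61 to 8.04). Col1a1 was higher on average, at 4.98 and 6.61, and did not pass the test (adjusted p = 0.0619). Of 5 cholangiocyte markers Epcam rose and Krt19 fell (summed level 7.93 to 9.17 against 8.68 to 9.26). Sox9, the brightest of the 5, was at 8.07 and 8.65 and did not pass the test (adjusted p = 0.278). The part of these cell types in the results that follow was not tested. Fewer cells of a type and less RNA per cell cannot be told apart in whole dishes. Replicate 1 stood apart in both groups: its correlation with its fellow replicates, across genes, averaged 0.986 under Ad-GFP and 0.991 under Ad-nuclear CREBH, the lowest of each group. Whether the dishes came from separate animals is not stated, so that p-values measure the spread between dishes, which may be technical.

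Of the 10 phospholipid enzymes 4 rose and 2 fell in hepatocytes transduced with Ad-nuclear CREBH, at an adjusted p under 0.05 from limma over all genes. Among all 18820 genes 37.4% were called by this test, 19.2% higher and 18.2% lower, and among the 9750 genes with a mean log2 value over 5, to which 9 of the 10 belong, 58.2% were called. With the arrays centred on their medians, which raised the median change of all genes from 0.039 to 0.18 (log2), 4814 genes were called higher and 2852 lower in place of 3615 and 3427, and 4 enzymes rose and 1 fell. Higher and lower calls made up 29% and 29.2% of those brighter genes. Of the 9 brighter enzymes 5 were called, a share close to that of all genes of this brightness. The arrays of both groups did not overlap for 6 of the 10 genes, against 49.4% of all genes. The log2 change, the mean under Ad-nuclear CREBH minus that under Ad-GFP, had a median of 0.22 over the enzymes. It was 0.039 over all genes and -0.046 over those with a mean log2 value over 5. The criteria of the study's methods are a fold change above 2 or below 0.5 at an unadjusted p under 0.001 with a linear group mean over 300. By these Pcyt2 was upregulated and Chka downregulated, which is 2 of 10 against 8.01% of all genes (4.91% upregulated, 3.1% downregulated). That share includes dim genes, which cannot reach the minimum of 300, and it was not computed for brighter genes, so that no excess is read. Without replicate 1 of both groups 4 enzymes rose and 4 fell, and of all 18820 genes 4377 were called higher and 4765 lower.

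**Figure D1:**
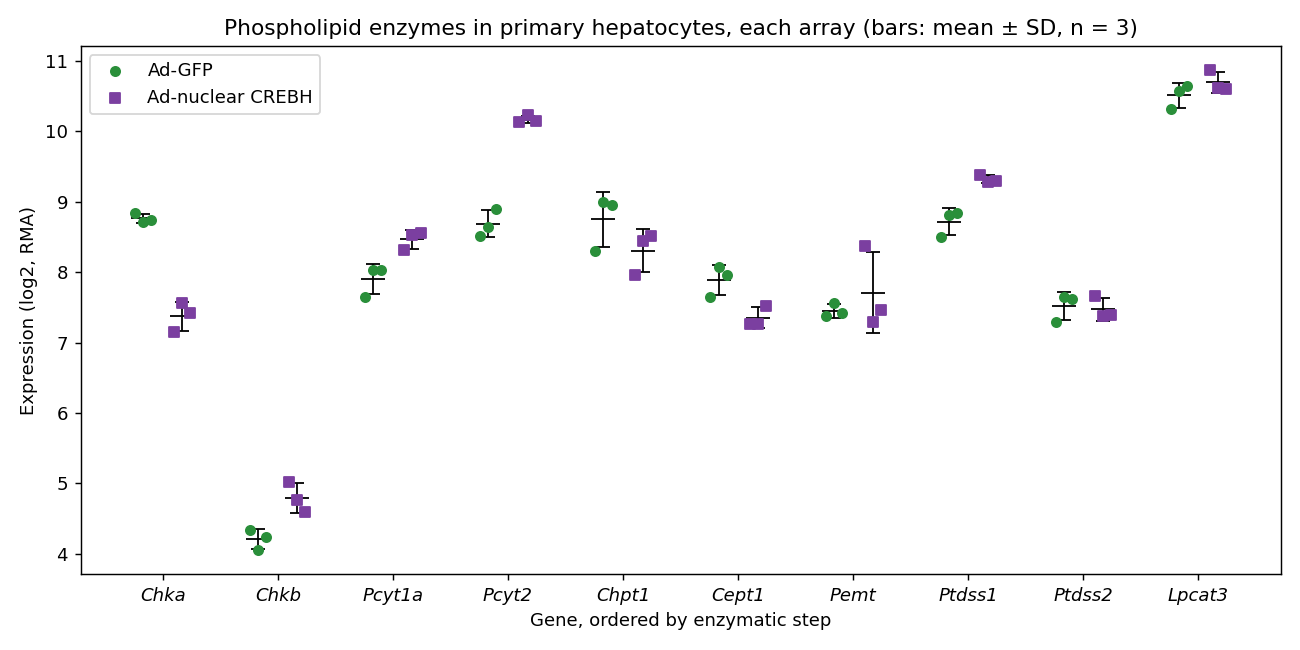
Expression (log2, RMA) of the 10 phospholipid enzymes in order of enzymatic step, with green circles for single Ad-GFP arrays, purple squares for single Ad-nuclear CREBH arrays, and bars for mean ± SD (n = 3 dishes). The groups lie furthest apart for Chka, at 8.76 and 7.37, and for Pcyt2, at 8.69 and 10.17, and 1 Ad-nuclear CREBH array of Pemt, at 8.37, lies away from the other two.

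Choline kinases start the choline branch by phosphorylating choline, and also act on ethanolamine. Expression of Chka, which encodes choline kinase alpha, was 8.84, 8.72 and 8.74 under Ad-GFP and 7.15, 7.56 and 7.42 under Ad-nuclear CREBH. Every Ad-nuclear CREBH dish lay below every Ad-GFP dish, with a gap of 1.16 between the groups. Chka fell to 0.382 of the control level, a log2 change of -1.39 (SE 0.14, 95% confidence interval -1.72 to -1.06, adjusted p = 1.7e-04). Chkb, which encodes choline kinase beta, went the other way. It was at 4.33, 4.05 and 4.24 under Ad-GFP and at 5.02, 4.76 and 4.60 under Ad-nuclear CREBH, again without overlap. This was a rise of 0.58 on the log2 scale (SE 0.16, adjusted p = 0.0210). Both group means of Chkb lay below the median of all genes, which was 5.05 to 5.30 on the 6 arrays, so that its change can be understated. The call was lost without Ad-GFP replicate 2 (adjusted p = 0.0849) or 3 (0.0567) and without Ad-nuclear CREBH replicate 1 (0.0549) or 2 (0.0577). In RefSeq other genes overlap 6 of the 10 enzymes, namely Chkb (Gm44502 and C730034F03Rik, both noncoding), Chpt1 (Sycp3), Cept1 (Dennd2d and Dram2), Pemt (Gm38498, noncoding), Ptdss1 (Mterf3 and the noncoding 4933433G19Rik) and Lpcat3 (Emg1), and their part in these signals was not tested.

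The promoters of both kinases and of Pcyt1a are shown because these genes moved in different directions and all have an entry in the RefSeq promoter table (GRCm38.p6). That table held 13 windows for 8 of the 10 enzymes, and Pcyt2 and Ptdss1 were not among them. Of the windows of Pcyt1a the one that holds TGACG is shown. Cept1, which fell, also has windows, and these are not shown. Each stretch is the 250 bases before a transcription start, 5′ to 3′ on the strand of the gene, with capitals for TGACG, the core of the cyclic AMP response element, and for CCACG, an element of unfolded protein response promoters, on either strand.
Chka, chr19:3851523-3851772, + strand: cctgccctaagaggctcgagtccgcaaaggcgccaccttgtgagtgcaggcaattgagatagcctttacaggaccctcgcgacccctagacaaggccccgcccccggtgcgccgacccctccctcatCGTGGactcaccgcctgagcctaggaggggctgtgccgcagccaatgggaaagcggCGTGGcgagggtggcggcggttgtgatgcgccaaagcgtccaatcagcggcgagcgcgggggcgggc
Chkb, chr15:89429928-89430177, - strand: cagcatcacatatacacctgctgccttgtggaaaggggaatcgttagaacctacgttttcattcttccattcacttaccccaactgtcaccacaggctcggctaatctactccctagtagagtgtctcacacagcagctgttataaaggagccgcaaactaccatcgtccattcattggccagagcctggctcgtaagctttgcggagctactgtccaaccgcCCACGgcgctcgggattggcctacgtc
Pcyt1a, chr16:32430770-32431019, + strand: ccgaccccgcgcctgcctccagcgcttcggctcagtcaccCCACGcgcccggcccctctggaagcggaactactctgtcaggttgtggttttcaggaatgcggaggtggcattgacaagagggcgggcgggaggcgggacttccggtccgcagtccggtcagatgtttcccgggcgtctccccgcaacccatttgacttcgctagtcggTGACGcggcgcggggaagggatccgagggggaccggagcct

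The full element TGACGTCA and its first letters TGACGT, which contain TGACG, were in none of the 13 windows on either strand, and they are in 1.55% and 6.47% of all 32851 windows of this length. TGACG was in 1 of the 13 windows, the one of Pcyt1a shown, 41 bases before the start, and is in 17.8% of all windows. CCACG was in 7 of the 13 windows, from 5 of the 8 enzymes, and is in 28.3% of all windows. The match of Pcyt1a lies in a stretch that its first windows share and is counted in both. The sequence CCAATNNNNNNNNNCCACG, the endoplasmic reticulum stress element, was in none of them and is in 0.113% of all windows. These matches describe letters and not binding, and Chka, which fell, and Chkb and Pcyt1a, which rose, all held CCACG.

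The next pair of enzymes makes CDP-choline and CDP-ethanolamine, the step that is held to set the pace of each branch. Pcyt2, which encodes the ethanolamine enzyme, had the largest rise of the 10 genes. It was at 8.52, 8.64 and 8.89 under Ad-GFP and at 10.13, 10.23 and 10.14 under Ad-nuclear CREBH. The groups were separated by 1.24, more than the spread within either group. Pcyt2 mRNA rose 2.79-fold, a log2 change of 1.48 (SE 0.12, 95% confidence interval 1.20 to 1.77, adjusted p = 6.3e-05). Pcyt1a, which encodes the main choline enzyme, was at 7.65, 8.03 and 8.03 and at 8.31, 8.52 and 8.56, so that the groups did not overlap. It rose by 0.56 (SE 0.15, adjusted p = 0.0202), or 1.48-fold, and this call was lost without Ad-nuclear CREBH replicate 2 (adjusted p = 0.0807) or replicate 3 (0.0857).

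The last step of the Kennedy pathway is shared by CHPT1, which makes phosphatidylcholine, and CEPT1, which makes both phosphatidylcholine and phosphatidylethanolamine. Cept1 was at 7.65, 8.07 and 7.96 under Ad-GFP and at 7.27, 7.26 and 7.52 under Ad-nuclear CREBH. The groups were apart by 0.13, and Cept1 fell with a log2 change of -0.54 (SE 0.16, adjusted p = 0.0278). Its adjusted p was 0.108 without Ad-GFP replicate 2, 0.0958 without Ad-GFP replicate 3, 0.0667 without Ad-nuclear CREBH replicate 1, 0.105 without Ad-nuclear CREBH replicate 2 and 0.0512 with each array centred on its median. Chpt1 was at 8.30, 9.0 and 8.95 and at 7.95, 8.44 and 8.52, with replicate 1 the lowest of each group. The groups overlapped through Ad-GFP replicate 1, and the log2 change of -0.45 (SE 0.23, 95% confidence interval -0.97 to 0.08) did not pass the test (adjusted p = 0.175). Without Ad-GFP replicate 1 it was -0.67 (adjusted p = 0.0189), and without replicate 1 of both groups -0.49 (adjusted p = 3.1e-04).

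PEMT methylates phosphatidylethanolamine to phosphatidylcholine and is largely a liver enzyme. Pemt was at 7.37, 7.56 and 7.42 under Ad-GFP and at 8.37, 7.30 and 7.46 under Ad-nuclear CREBH. A single array, Ad-nuclear CREBH replicate 1, was higher than the rest, and the SD of its group was 0.58 against 0.098 in the control group. The log2 change was 0.26 (SE 0.27, 95% confidence interval -0.35 to 0.88, adjusted p = 0.501). Its sign rested on that array, since without it the value was -0.07 (adjusted p = 0.758).

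Phosphatidylserine synthases exchange the head group for serine, PTDSS1 mainly on phosphatidylcholine and PTDSS2 on phosphatidylethanolamine. Ptdss1 was at 8.49, 8.81 and 8.84 under Ad-GFP and at 9.38, 9.28 and 9.30 under Ad-nuclear CREBH, and the groups did not overlap. Ptdss1 rose 1.52-fold, with a log2 change of 0.61 (SE 0.13, 95% confidence interval 0.31 to 0.90, adjusted p = 0.00672), and it passed the test under all 16 alternatives. Ptdss2 was at 7.29, 7.65 and 7.61 and at 7.65, 7.37 and 7.39, with overlapping groups. Its log2 change was -0.05 (SE 0.16, 95% confidence interval -0.41 to 0.32, adjusted p = 0.858). The value for Ptdss2 ranged from -0.25 without replicate 1 of both groups, where it passed the test as a fall (adjusted p = 0.0333), to 0.10 with each array centred on its median.

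LPCAT3 places polyunsaturated acyl chains in phosphatidylcholine and is the main acyltransferase of this kind in liver. Lpcat3 was at 10.31, 10.57 and 10.65 under Ad-GFP and at 10.87, 10.61 and 10.60 under Ad-nuclear CREBH. The groups overlapped, and the log2 change of 0.18 (SE 0.12, adjusted p = 0.299) did not pass the test. Its 95% confidence interval, -0.10 to 0.47, leaves out a rise of 2-fold.

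**Figure D2:**
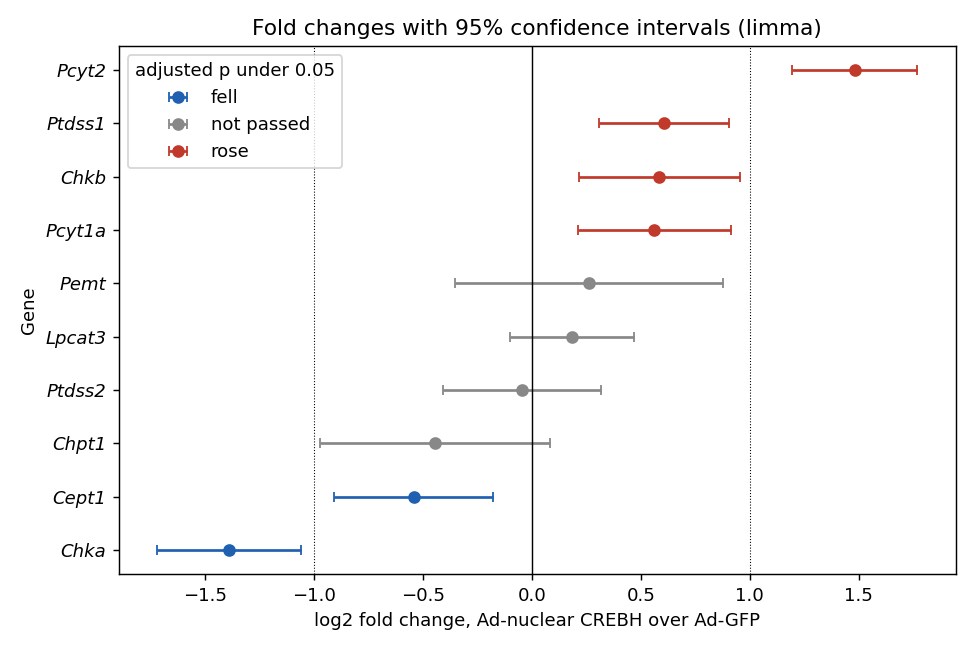
Log2 change of the 10 phospholipid enzymes, Ad-nuclear CREBH over Ad-GFP (n = 3 dishes each), with 95% confidence intervals from limma, in red for a rise and blue for a fall at an adjusted p under 0.05 and grey otherwise, with dotted lines at a 2-fold change. The intervals of Pcyt2, 1.20 to 1.77, and Chka, -1.72 to -1.06, lie beyond these lines, and Ptdss1 follows at 0.61.

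Enzymes of the same or of a parallel step were compared within each array, by the difference of their log2 values. The size of such a difference depends on the probes, and only its change between groups is read. The smallest p that an exact permutation test of 3 dishes against 3 can give is 0.1, so that none of 4 pairs could pass. The difference of Chka and Chkb went from 4.56 ± 0.095 (SD, n = 3) to 2.58 ± 0.39 (SD, n = 3), a change of -1.97 (two-sided exact p = 0.1, adjusted p = 0.133 over 4 pairs). That of Pcyt1a and Pcyt2 changed by -0.92, from -0.78 ± 0.14 to -1.70 ± 0.11 (SD, n = 3; two-sided exact p = 0.1). That of Ptdss1 and Ptdss2 changed by 0.65, from 1.20 ± 0.034 to 1.85 ± 0.10 (SD, n = 3; two-sided exact p = 0.1). In these pairs the arrays of one group all lay on one side of those of the other. That of Chpt1 and Cept1, both lower on average, changed by 0.097 with overlapping groups (two-sided exact p = 0.5, n = 3), less than the SD of either group, 0.18 and 0.25.

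**Figure D3:**
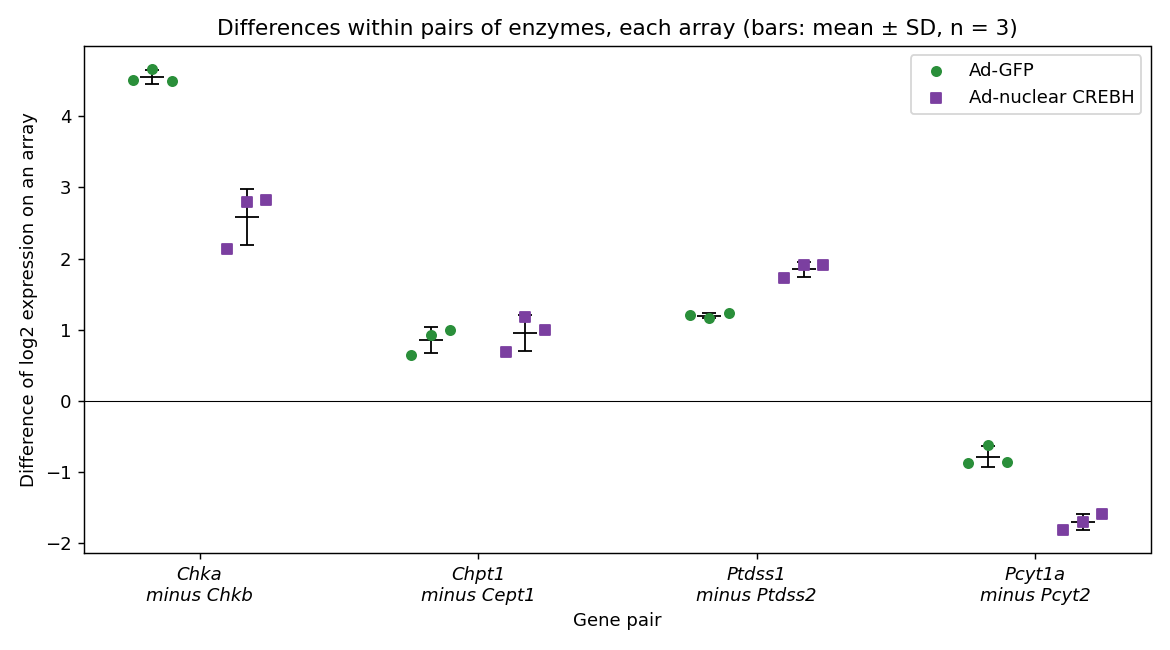
Difference of the log2 expression of paired phospholipid enzymes with green circles for single Ad-GFP arrays, purple squares for single Ad-nuclear CREBH arrays, bars for mean ± SD (n = 3 dishes) and a line at 0. The difference of Chka and Chkb went from 4.56 to 2.58, whereas that of Chpt1 and Cept1 overlapped between groups.

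The surrounding pathway was read through 81 measured genes of a list of 90, in groups by role. Of these 35 rose and 24 fell, which is 72.8% called against 37.4% of all genes, and 52 of the 69 with a mean over 5 were called, against 58.2% of all genes of that brightness. Their median log2 change was 0.22, against 0.039 over all genes and -0.046 over those with a mean log2 value over 5. Nothing particular to the list is read from these shares, since its genes were chosen and not drawn.

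Of 4 measured genes that handle choline and ethanolamine phosphates 2 rose and 1 fell, against 19.2% and 18.2% of all genes. Etnk2 and Phospho1, of the same role group, had no feature of their own and were not seen. Etnk1, which encodes ethanolamine kinase 1, was at 8.35, 8.06 and 8.50 under Ad-GFP and at 10.53, 10.92 and 10.99 under Ad-nuclear CREBH, a rise of 2.51 on the log2 scale (SE 0.17, adjusted p = 2.7e-05). Pcyt2, described above, acts next and rose by 1.48. Selenoi, which encodes ethanolaminephosphotransferase 1, was at 8.96, 8.97 and 8.90 and at 9.49, 9.24 and 9.29, a smaller rise of 0.40 (SE 0.11, adjusted p = 0.0246). This last call was lost without Ad-GFP replicate 2 (adjusted p = 0.0667) or 3 (0.0910), without Ad-nuclear CREBH replicate 2 (0.0530) or 3 (0.0683) and after quantile normalization (0.0774). Etnppl, whose product breaks down phosphoethanolamine, fell from 5.51 to 3.77, with a log2 change of -1.74 (adjusted p = 7.95e-04). Pcyt1b, the second gene of the enzyme that makes CDP-choline, was at 3.49 and 3.58 (adjusted p = 0.804).

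Of 4 measured genes of the Slc44 family, which includes transporters of choline, 3 fell. Called lower were 18.2% of all genes and 29.2% of those with a mean log2 value over 5. The family was not a role group of the list, and its genes belong to choline uptake and oxidation, where 3 of 9 rose and 3 fell. Slc44a1, which encodes a choline transporter, was at 9.31, 9.90 and 9.91 under Ad-GFP and at 8.47, 8.36 and 8.36 under Ad-nuclear CREBH, a log2 change of -1.31 (SE 0.17, adjusted p = 5.8e-04). Slc44a3, of the same family, was at 7.61, 8.97 and 8.88 and at 4.61, 5.70 and 5.73, a log2 change of -3.14 (SE 0.43, adjusted p = 6.6e-04). Slc44a2 was at 5.23, 5.63 and 5.80 and at 4.14, 4.33 and 4.51 and fell by 1.23 (adjusted p = 0.00133). Slc44a4, which lies outside the rule for named genes and was added after its values were seen, was at 3.30 and 3.62, with every Ad-nuclear CREBH array above every Ad-GFP array, and did not pass the test (log2 change 0.32, adjusted p = 0.0869).

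Choline that is not phosphorylated is oxidized to betaine, which gives its methyl groups away in the mitochondria and the methionine cycle. Of 9 measured genes of choline uptake and oxidation 3 rose and 3 fell, against 19.2% and 18.2% of all genes. Those that fell were Slc44a1, Slc44a2 and Slc44a3. Chdh, the choline dehydrogenase gene, rose by 1.66 (adjusted p = 0.00237) and Dmgdh, the dimethylglycine dehydrogenase gene, by 2.31 (adjusted p = 7.85e-05). Bhmt2, a relative of the betaine-homocysteine methyltransferase gene Bhmt, rose by 2.99 (adjusted p = 1.75e-04). The rise of Bhmt2 is not read as one of betaine use. Bhmt, whose transcript resembles that of Bhmt2, was at 6.90 and 6.37 (adjusted p = 0.135; 0.00536 without Ad-nuclear CREBH replicate 1), and the pair shares a further feature, so that these values are uncertain. Sardh, the sarcosine dehydrogenase gene, was at 7.33 and 6.78 (adjusted p = 0.113; 0.00207 without Ad-GFP replicate 1).

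PEMT takes its methyl groups from S-adenosylmethionine. Of 4 measured genes that make or use it or dispose of its product, 1 rose and 1 fell, against 19.2% and 18.2% of all genes. Mat2a, of the same role group, had no feature of its own. Gnmt, which encodes glycine N-methyltransferase, a second large consumer of S-adenosylmethionine in liver, rose by 2.18 (SE 0.19, adjusted p = 7.5e-05). Mat2b, a regulatory subunit of methionine adenosyltransferase, fell with a log2 change of -0.55 (adjusted p = 0.0209). The adjusted p of Mat2b was 0.0867 without Ad-GFP replicate 2, 0.0710 without Ad-GFP replicate 3, 0.0513 without Ad-nuclear CREBH replicate 1 and 0.0751 without Ad-nuclear CREBH replicate 2. Mat1a, the liver form of the catalytic subunit, was at 8.94 and 8.67 (adjusted p = 0.537; 0.0327 without Ad-GFP replicate 1), and Ahcy, which removes S-adenosylhomocysteine, was at 10.94 and 11.08 (adjusted p = 0.614).

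Phosphatidylserine is decarboxylated in mitochondria, and CDP-diacylglycerol leads to phosphatidylinositol and, in mitochondria, to cardiolipin. Of 9 genes of these routes 6 rose and 2 fell, against 19.2% and 18.2% of all genes. Of the 7 with a mean log2 value over 5, 6 were called, against 58.2% of all genes of that brightness. Crls1, the cardiolipin synthase gene, rose by 1.35 (SE 0.12, adjusted p = 8.6e-05), Taz, the tafazzin gene, whose product remodels cardiolipin, by 0.96 (adjusted p = 0.00279) and Ptpmt1, which encodes the phosphatase that forms phosphatidylglycerol, by 0.87 (adjusted p = 0.00235). Cds2, a CDP-diacylglycerol synthase gene of the endoplasmic reticulum, fell with a log2 change of -1.95 (adjusted p = 1.4e-04), and Tamm41, its mitochondrial counterpart, with -1.09 (adjusted p = 0.00215). Cdipt, the phosphatidylinositol synthase gene, was at 10.26 and 10.12 (adjusted p = 0.446).

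Among 13 genes that supply phosphatidic acid and diacylglycerol 5 rose and 4 fell. All 4 measured genes of the acylglycerophosphate acyltransferases were among those that rose. Called higher were 19.2% of all genes and 29% of those with a mean log2 value over 5, and called lower were 18.2% and 29.2%. Agpat1 had no feature of its own, and Agpat2 and Agpat3 lie outside the rule for named genes. Agpat4 was at 5.32, 4.36 and 5.86 under Ad-GFP and at 9.27, 9.40 and 9.40 under Ad-nuclear CREBH, a rise of 4.17 (SE 0.33, adjusted p = 5.1e-05), the largest among the 81 genes. Agpat5 rose by 1.17 (adjusted p = 0.00495), and Agpat2 and Agpat3 by less. Of the lipins, which dephosphorylate phosphatidic acid, Lpin3 rose by 2.31 (adjusted p = 4.7e-05) and Lpin2 fell with a log2 change of -0.73 (adjusted p = 0.0101), whereas Lpin1 fell with one of -2.64 (adjusted p = 3.55e-05). Gpam, the mitochondrial glycerol-3-phosphate acyltransferase gene, fell with -1.53 (adjusted p = 0.00516), and Gpat4 and Gnpat were at 0.23 (adjusted p = 0.180) and 0.20 (adjusted p = 0.451).

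Of 8 lysophospholipid acyltransferases besides Lpcat3 4 fell and none rose, against 18.2% and 19.2% of all genes. Of the 4 with a mean log2 value over 5 only Lpcat4 was called, against 58.2% of all genes of that brightness, and the other falls, of Mboat1, Lpcat1 and Lpcat2, were in dimmer genes. Mboat1 fell with a log2 change of -2.80 (SE 0.45, adjusted p = 0.00163), to 2.87, far below the median of all genes. Lpcat4 and Lpcat1 were at -1.19 (adjusted p = 0.0248) and -0.85 (adjusted p = 0.0431), and leaving out any one array other than Ad-GFP replicate 1 took both calls away, with adjusted p-values up to 0.0863 without Ad-nuclear CREBH replicate 3 for Lpcat4 and 0.136 without Ad-GFP replicate 3 for Lpcat1. Lpcat1 also failed after quantile normalization (0.0597) and cyclic loess (0.0559). The brightest members, Lpgat1 and Lclat1, had log2 changes of -0.24 (adjusted p = 0.249) and -0.41 (adjusted p = 0.0890). The latter passed without Ad-GFP replicate 1 (0.0152), with the replicate number as a block (0.0250), with array weights (0.00844), after quantile normalization (0.0322) and without replicate 1 of both groups (0.00174).

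Phospholipases and enzymes of deacylation moved both ways, with 8 of 18 risen and 5 fallen, against 19.2% and 18.2% of all genes. Of the 17 with a mean log2 value over 5, 13 were called, against 58.2% of all genes of that brightness. Pla2g12a, a secreted phospholipase A2 gene, rose by 2.32 (adjusted p = 3.7e-05), and the glycerophosphodiesterase genes Gdpd1 and Gde1 rose by 2.04 (adjusted p = 4.9e-04) and 1.52 (adjusted p = 8.8e-05). Napepld and Abhd4, which act on N-acylphosphatidylethanolamine, fell with log2 changes of -1.81 (adjusted p = 0.00319) and -1.86 (adjusted p = 8.95e-05). Pnpla6, a lysophospholipase gene, fell with -1.01 (adjusted p = 0.00217), while Pld2 and Gpcpd1 were at 0.30 (adjusted p = 0.429) and 0.22 (adjusted p = 0.210).

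Of 10 genes of phospholipid transfer and export 7 rose and 2 fell, against 19.2% and 18.2% of all genes. All 10 had a mean log2 value over 5, and of all genes of that brightness 29% were called higher and 29.2% lower. Mfsd2a, which encodes a transporter of lysophosphatidylcholine, was at 8.49, 7.16 and 7.18 under Ad-GFP and at 8.82, 9.60 and 9.62 under Ad-nuclear CREBH. It rose by 1.74 (SE 0.38, adjusted p = 0.00756), and in both groups replicate 1 differed most from the others. Stard7, a phosphatidylcholine carrier to mitochondria, rose by 1.37 (adjusted p = 2.6e-04) and Atp8b1, a flippase of the canalicular membrane, by 1.09 (adjusted p = 9.3e-04). Abcb4, which exports phosphatidylcholine into bile, was at 8.59, 9.88 and 9.76 and at 7.0, 6.87 and 7.17, a log2 change of -2.39 (SE 0.32, adjusted p = 6.0e-04). Lcat, whose secreted product moves an acyl chain of phosphatidylcholine to cholesterol, fell with -1.10 (adjusted p = 0.00858), and Stard10, a lipid transfer protein gene, was at 11.61 and 11.72 (log2 change 0.10, adjusted p = 0.392). Its change was 0.24 with the arrays centred on their medians, and 0.16 without replicate 1 of both groups, where it passed (adjusted p = 0.0166).

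**Figure D4:**
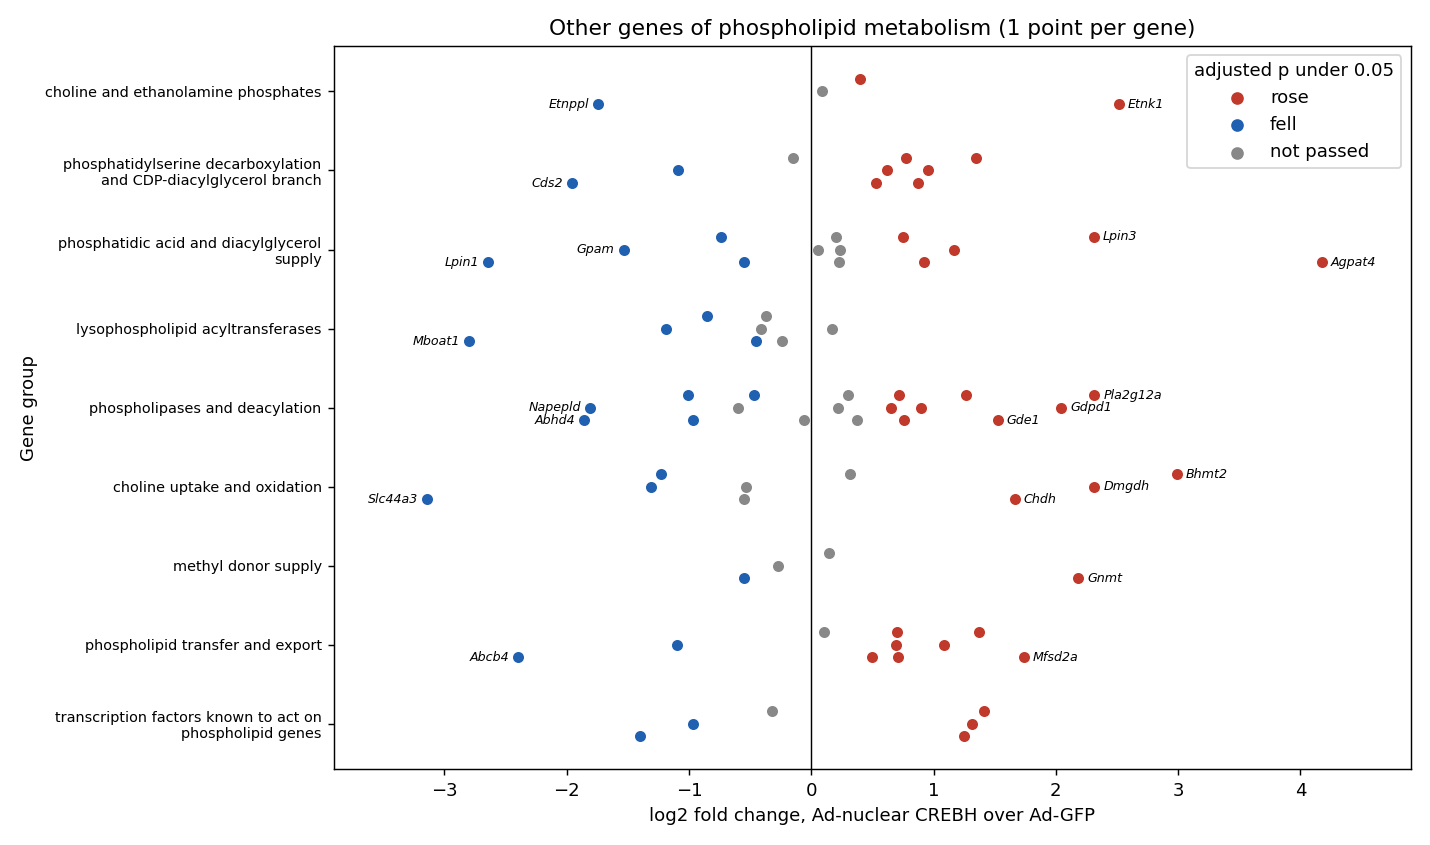
Log2 fold change, Ad-nuclear CREBH over Ad-GFP (n = 3 dishes each), of 81 other genes of phospholipid metabolism in rows by role, 1 point per gene; points are red for a rise and blue for a fall at an adjusted p under 0.05 from limma and grey otherwise. No lysophospholipid acyltransferase is red, and Mboat1 is the lowest at -2.80, whereas choline uptake and oxidation runs from -3.14 for Slc44a3 to 2.99 for Bhmt2.

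Transcription factors listed for their links to phospholipid metabolism also moved both ways, with 3 of 6 risen and 2 fallen. Among all genes 19.2% rose and 18.2% fell. All 6 factors had a mean log2 value over 5, and of all genes of that brightness 58.2% were called. Xbp1, a factor of the unfolded protein response that enlarges the endoplasmic reticulum, was at 11.07, 10.86 and 11.19 under Ad-GFP and at 12.30, 12.39 and 12.36 under Ad-nuclear CREBH, a rise of 1.31 (SE 0.095, adjusted p = 3.7e-05). The array does not separate its spliced and unspliced forms. Srebf1 rose by 1.41 (adjusted p = 0.00273) and Ppard by 1.25 (adjusted p = 4.8e-04). Nr1h3, the gene of LXR alpha, which is known to induce Lpcat3, was at 7.35, 8.02 and 8.01 and at 6.37, 6.99 and 7.12, a log2 change of -0.97 (adjusted p = 0.0187; 0.0679 without Ad-GFP replicate 2, 0.0682 without replicate 3 of that group). Nr5a2, a nuclear receptor that binds phospholipids, fell with -1.40 (adjusted p = 0.00151), and Srebf2 was at 8.50 and 8.19 (adjusted p = 0.314; 0.0180 without Ad-GFP replicate 1).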

How the data were processed

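Gene expression was measured in 6 dishes of mouse primary hepatocytes, 3 per group, and groups were taken from the sample labels. For the CREBH group the labels read Ad-CREBH3, and the name Ad-nuclear CREBH follows the study's methods. The authors deposited log2 values made with RMA, which corrects background, normalizes between arrays and summarizes probes; no version or array definition is given in the sources used here. The log base follows from the range of the values. RMA carries no flag for background, so dim genes have understated changes. Of the features 21218 carried 1 gene symbol, 1881 several and 12457 none, and the brightest feature with 1 symbol was kept per gene, which left 18820 genes. No array had more than 11 values identical with another.

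Ad-nuclear CREBH was compared with Ad-GFP with limma 3.58.1 in R 4.3.3 (lmFit, eBayes with an intensity trend, no covariate), with 4 residual degrees of freedom and a prior of 3.97. P-values were adjusted by Benjamini-Hochberg over all genes, and this fit gave every adjusted p-value printed for a gene unless an alternative is named. The expression criterion of 300 was applied to the linear group mean in at least 1 group. Pairs of genes were compared by two-sided exact permutation tests, adjusted over 4 pairs. The fit was tested on simulated data. Promoters came from RefSeq (GRCm38.p6). Figures were drawn with matplotlib 3.10.9.

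The enzymes, the surrounding list of 90 genes and the marker lists were chosen with earlier results of these data known. Named in the text are all 10 enzymes and, for each role, up to 3 of the largest rises and falls and the 2 brightest genes that did not pass. Alternatives covered the variance prior, including the intensity-based moderated statistic of the methods, weights for arrays, a block for the replicate number, normalization, features per gene, a minimum level of 5 (log2), the expression criterion and leaving out each array; leaving out replicate 1 of both groups was added after the data had been seen. Of the listed genes 9 had no feature of their own and were not analysed here.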

Additional observations from a re-analysis of the deposited data

How the results depend on the processing

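Chka, Pcyt2 and Ptdss1 passed the test with the same direction under all 16 alternatives to the fit, and the log2 changes lay between -1.48 and -1.24, 1.38 and 1.62, and 0.46 and 0.75. The number of enzymes that rose was 2 to 4 with 1 array left out, the lowest without Ad-nuclear CREBH replicate 2, and the number that fell was 1 to 3, with 1 without Ad-GFP replicates 2 or 3 or Ad-nuclear CREBH replicates 1 or 2. It was 1 after centring of the arrays on their medians, where Cept1 no longer passed, and 4 without replicate 1 of both groups, where Chpt1 and Ptdss2 passed. Calls among all genes numbered 4377 higher and 4765 lower in that last setting. They ranged from 2877 to 3764 higher and from 2637 to 4043 lower with 1 array left out. Of the criteria of the methods, requiring both group means over 300 left 1 enzyme, Pcyt2. Centring took the median of the log2 changes over all genes from 0.039 to 0.18, and the calls among all genes from 3615 higher and 3427 lower to 4814 and 2852. Values that did not pass and changed sign were those of Ptdss2 (0.10 centred, 0.0031 after quantile normalization, 0.0021 under cyclic loess, -0.16 to 0.020 with 1 array left out), Pemt (-0.11 without replicate 1 of both groups, -0.068 to 0.47 with 1 array left out), Lpcat3 (-0.0049 without replicate 1 of both groups), Pld2 (-0.017 with array weights, -0.12 without replicate 1 of both groups, -0.0060 to 0.46 with 1 array left out), Pcyt1b (-0.059 to 0.31) and Ahcy (-0.040 to 0.31 with 1 array left out). The change of the difference of Chpt1 and Cept1 was -0.018 to 0.23 with 1 array left out. Other named genes that gained a call were Lclat1, Bhmt, Sardh and Srebf2 with array weights, and these with Mat1a and Stard10 without replicate 1 of both groups. The cause of these changes was not tested.

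Equal replicate numbers deviated together with correlations, across genes, of 0.178, 0.073 and 0.139, and unequal numbers with -0.173 to 0.120. The study's methods name no block, and the main fit has none. Whether equal numbers mark dishes handled together was not tested. With the replicate number as a block 4 enzymes rose and 3 fell (Chpt1 at -0.45, adjusted p = 0.0177; of the other genes named as not passed, Lclat1 was called), 35 and 26 of the surrounding genes were called, and 3715 and 3705 of all genes. With 3 arrays per group, precision is limited by their number.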
